A study of Homo sapiens with 6 samples.

Results

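The 39 HOX genes, whose proteins are homeodomain transcription factors, were followed in SUM159, an established cell line grown from a human triple-negative breast carcinoma. They are every gene of the deposited count table with a symbol made of HOX, a cluster letter from A to D and a number, 39 of 60675 genes, with 11 in the HOXA cluster, 10 in HOXB, 9 in HOXC and 9 in HOXD. Messenger RNA was sequenced from 3 libraries labelled control (genotype DAPK3 wild type, R1 to R3) and 3 labelled DAPK3 KO (R1 to R3), to find genes altered by loss of DAPK3, which encodes a death-associated protein kinase. Cells of both groups grew in serum-containing Ham's medium with insulin, hydrocortisone and HEPES, the KO cells were 1 line, numbered 3, and no label gives the age of the cultures, how the control cells were made or whether libraries came from separate cultures. P-values therefore cover only the spread seen among libraries, and that spread may be technical. For each label, values are listed in the order of the replicates.

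Library totals ran from 16312184 to 22970823 expected counts. DAPK3 RNA did not follow the labels. In CPM, counts scaled to a common library size, it was 26.2, 10.5 and 26.1 in the control libraries and 13.1, 27.2 and 11.2 in the KO libraries. The library labelled control R2 thus had the lowest level and the library labelled KO R2 the highest, and 43.5% of all genes tested divided the 6 libraries in that same way without overlap. No library was moved to another group. Whether the labels of the 2 R2 libraries were exchanged was not tested, and each value of KO against control depends on the labels as given. Comparisons of the labels are given with all 6 libraries and again without both R2 libraries, and the text states for each value which it is.

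HOX genes lie in 4 clusters, each on its own chromosome, and the number of a gene gives its place in the cluster. In the embryo low-numbered genes act towards the head and high-numbered genes towards the tail and the ends of the limbs, and adult cells tend to keep the combination that belongs to their place of origin. HOX proteins bind DNA together with TALE homeodomain partners of the PBX, MEIS and PKNOX families. Polycomb proteins hold unused clusters silent, while trithorax methyltransferases and retinoic acid open them.

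SUM159 cells showed a broad HOXC program, a partial HOXA program and almost no HOXB or HOXD RNA. To compare different genes, CPM was divided by the merged exon length of each gene in kilobases. Summed over a cluster, this level was 35.7 ± 6.21 CPM per kb for HOXC and 7.85 ± 0.842 for HOXA (SD over all 6 libraries). It was 0.728 ± 0.699 for HOXB and 0.441 ± 0.235 for HOXD. HOXC made up 77.0% to 82.8% of the sum over the 4 clusters, depending on the library. The order HOXC, HOXA and then the other clusters held in each of the 6 libraries. The means of HOXB and HOXD did not differ beyond their spread, but their order changed between libraries. HOXB stood above HOXD in control R1, control R3 and KO R2 and below it in the other libraries.

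**Figure D1:**
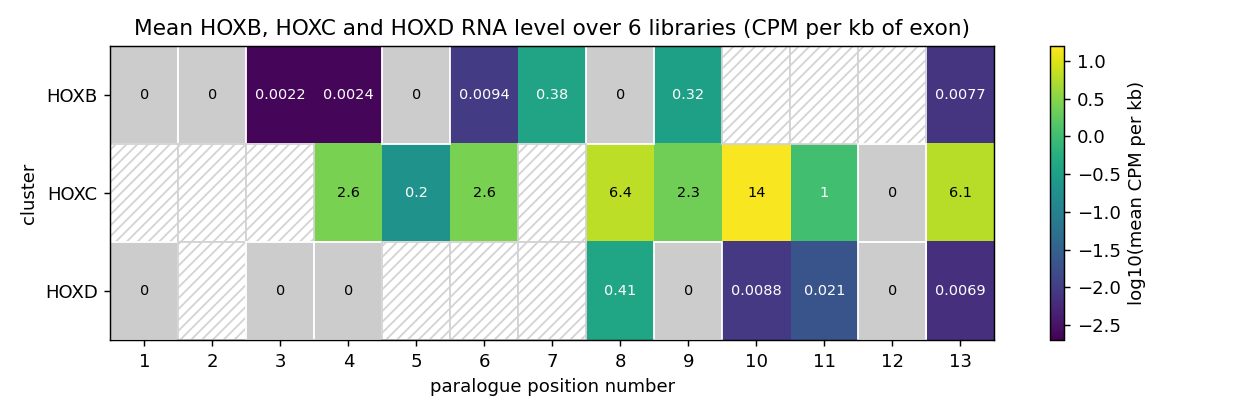
Mean level of each HOXB, HOXC and HOXD gene over the 6 libraries in CPM per kb of merged exon (number in each cell, colour on a log10 scale), by cluster and position number; grey cells are genes with 0 counts in all libraries and hatched cells are positions at which the cluster has no gene. The HOXC row holds the brightest cell, HOXC10, while 9 grey cells fall in the HOXB and HOXD rows and 1 in HOXC.

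Of the 39 genes, 10 had 0 expected counts in all 6 libraries: HOXB1, HOXB2, HOXB5, HOXB8, HOXC12, HOXD1, HOXD3, HOXD4, HOXD9 and HOXD12. With 0 counts over the summed libraries, a level of up to 0.025 CPM is allowed (3 counts of the total, for counting error only). Another 7 genes had 1 or 2 counts at most in any library, and 5 more, namely HOXA5, HOXA6, HOXB6, HOXC5 and HOXD11, were also too low to test. The other 17 passed edgeR's filter on low counts, which asked for about 0.492 CPM in at least 3 libraries. HOXB7 and HOXB9 passed it only through control R1, control R3 and KO R2, and HOXA11 only through control R2, KO R1 and KO R3. Such genes were tested because they were high in those libraries, so a count over the 17 is a description.

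In the HOXC cluster (GRCh38 chromosome 12, plus strand), 7 of 9 genes were tested, and the most abundant HOX gene of these cells was HOXC10, which patterns the lumbar region and hindlimb. HOXC10 (ENSG00000180818, 53985065 to 53990279) had 42.5, 32.9 and 32.1 CPM in the control libraries and 29.4, 35.9 and 28.3 in the KO libraries. The labelled groups overlapped. Per length, HOXC10 stood at 14.4 ± 2.21 CPM per kb over the 6 libraries, above HOXC8 at 6.44 ± 0.516 and HOXC13 at 6.12 ± 2.22. HOXC6 at 2.64 ± 0.826, HOXC4 at 2.62 ± 0.450 and HOXC9 at 2.26 ± 0.324 came next, followed by HOXC11 at 1.05 ± 0.314. Within the pair HOXC8 and HOXC13 and within the trio HOXC6, HOXC4 and HOXC9 the differences between means were smaller than the spread over libraries. The order of the pair changed between libraries. HOXC13 stood above HOXC8 in control R1, control R3 and KO R2 and below it in the other libraries. HOXC5 reached at most 13.63 counts, and HOXC12, which lies between HOXC11 and HOXC13, had none. HOXC5 shares 1081 exonic bases, 59.9% of its exon length, with a same-strand processed transcript that the annotation also names HOXC5. That entry, not among the 39 genes, had 89.23 counts over the 6 libraries. Reads there were divided by estimate, so the low level of HOXC5 is uncertain to that extent.

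HOXC8, which acts in the lower cervical and thoracic region, was nearly level across the libraries. It had 12.2, 11.9 and 12.4 CPM in the control libraries and 10.5, 13.5 and 12.6 in the KO libraries. HOXC13, known for its part in hair and nail keratin expression, was uneven, with 22.1, 10.99 and 16.7 CPM in the control libraries and 8.61, 19.4 and 11.2 in the KO libraries. Control R2 stood with KO R1 and KO R3, and KO R2 with the other control libraries. HOXC6, which acts in the thorax and in mammary tissue, divided the libraries in the same way, with 12.8, 7.12 and 11.6 CPM in the control libraries and 7.76, 11.2 and 5.51 in the KO libraries. HOXC11, a hindlimb gene, did so too, with 3.62, 3.25 and 4.28 CPM in the control libraries and 2.55, 4.76 and 2.04 in the KO libraries. HOXC4 had 8.65, 6.07 and 8.001 CPM in the control libraries and 5.95, 8.04 and 6.08 in the KO libraries. HOXC9, which acts in the thorax, had 4.15, 3.11 and 3.98 CPM in the control libraries and 3.93, 4.45 and 3.17 in the KO libraries, again with both R2 libraries on the side of the other label. In the annotation HOXC4 and HOXC6 share 484 exonic bases on the same strand, 17.8% of the HOXC4 exon length, so reads there were divided between them by estimate and their values are uncertain to that extent. HOXC13 shares 172 exonic bases, 7.10% of its exon length, with HOXC13-AS on the opposite strand.

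In the HOXA cluster (chromosome 7, minus strand), 7 of 11 genes were tested and HOXA10, a gene of the posterior trunk and uterus, was the most abundant. HOXA10 (ENSG00000253293, 27170591 to 27180261) had 12.8, 14.6 and 11.7 CPM in the control libraries and 12.7, 11.1 and 16.02 in the KO libraries, with overlapping groups. Per length it stood at 3.55 ± 0.499 CPM per kb over the 6 libraries, HOXA9, known from blood stem cells, at 1.08 ± 0.210 and HOXA4, a gene of the neck region, at 0.890 ± 0.429. The means of HOXA9 and HOXA4 did not differ beyond the spread, but their order changed between libraries. HOXA4 stood above HOXA9 in control R1, control R3 and KO R2 and below it in the other libraries. HOXA3, which acts in the throat region, stood at 0.528 ± 0.0937 and HOXA2, a gene of the hindbrain and its neighbouring arch, at 0.280 ± 0.0834. HOXA5, untested, stood at 0.235 ± 0.128, and this mean did not differ from HOXA2 or from HOXA11 at 0.197 ± 0.129 beyond the spread. HOXA5 stood above HOXA11 in control R1, control R3 and KO R2 and below it in the other libraries. HOXA6 stood at 0.159 ± 0.0722, HOXA7 reached at most 2 counts in a library, and HOXA13, a gene of the digits and the hind end, reached 1.

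HOXA4 and HOXA11 were the HOXA genes that divided the libraries without overlap, in opposite directions. HOXA4 (ENSG00000197576, 27128507 to 27130799) had 2.39, 1.29 and 2.37 CPM in the control libraries and 0.744, 1.79 and 0.738 in the KO libraries. HOXA11 (ENSG00000005073, 27181510 to 27185223), a gene of the forearm, kidney and uterus, had 0.147, 0.574 and 0.201 CPM in the control libraries and 0.691, 0.247 and 0.868 in the KO libraries. In each case control R2 lay on the side of KO R1 and KO R3. HOXA11 rests on 3 to 20 expected counts per library. It shares 717 exonic bases, 31.1% of its exon length, with HOXA11-AS on the opposite strand, and HOXA4 shares 254, 14.5%, with HOXA-AS2. Without a stated strand setting, reads of such partners cannot be told apart.

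Of the 10 HOXB genes (chromosome 17, minus strand) HOXB7 and HOXB9 alone were tested, and both were close to absent from some libraries. HOXB7 (ENSG00000260027, 48607227 to 48633572), a gene long studied in breast cancer, had 18, 1 and 31 counts in the control libraries and 1, 15 and 1 in the KO libraries, or 0.879, 0.0478 and 1.56 CPM in the control libraries and 0.0531, 0.928 and 0.0434 in the KO libraries. HOXB9 (ENSG00000170689, 48621159 to 48626356), a thoracic gene, had 14, 1 and 27 counts in the control libraries and 7, 37 and 6 in the KO libraries, or 0.684, 0.0478 and 1.36 CPM in the control libraries and 0.372, 2.29 and 0.260 in the KO libraries. KO R2 held the highest HOXB9 level and control R2 the lowest. In the HOXD cluster (chromosome 2, plus strand) only HOXD8 of 9 genes was tested. HOXD8 (ENSG00000175879, 176129694 to 176132695), a trunk gene, had 1.56, 0.526 and 1.81 CPM in the control libraries and 0.638, 1.55 and 0.304 in the KO libraries. These 3 genes were high in control R1, control R3 and KO R2 and low in the other libraries. In bulk RNA, fewer cells that express a gene and less RNA per cell cannot be told apart.

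**Figure D2:**
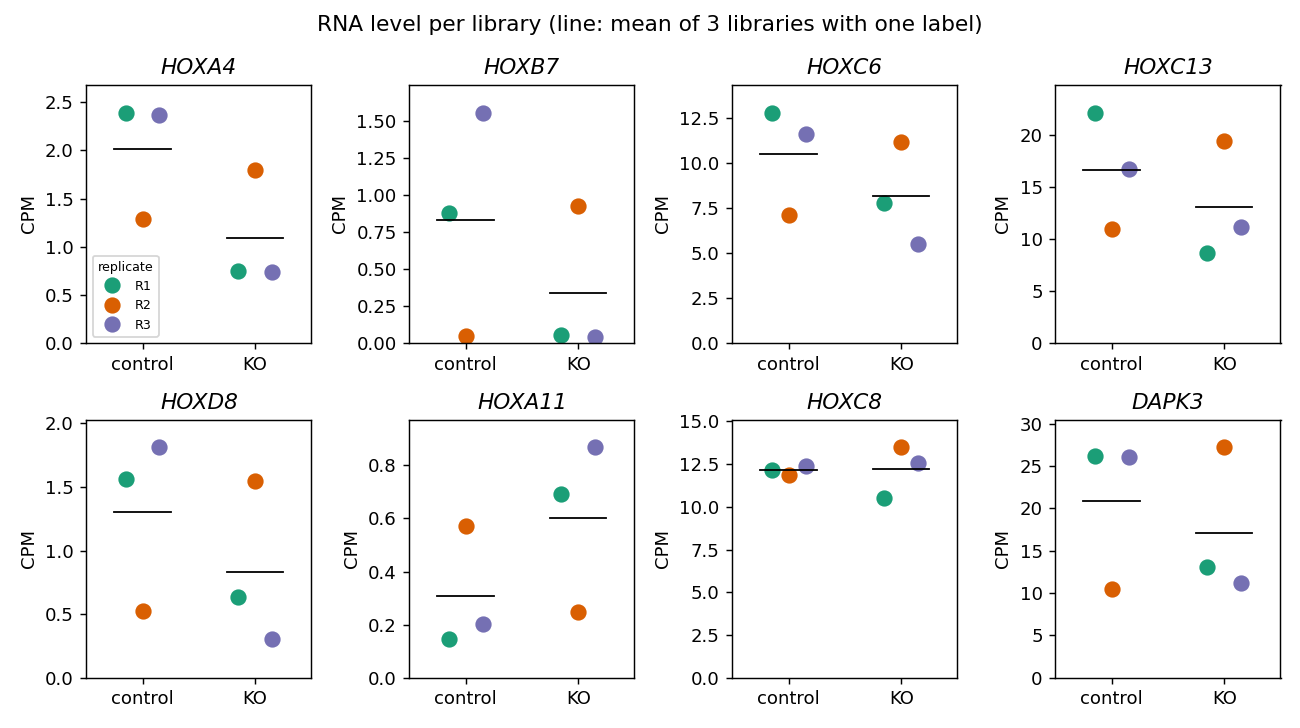
CPM in each library (points, coloured by replicate number; line, mean of the 3 libraries of a label) for the 6 HOX genes called without both R2 libraries, for HOXC8 and for DAPK3. The R2 points lie on the side of the other label for HOXA4, HOXB7, HOXC6, HOXC13, HOXD8, HOXA11 and DAPK3, and the 6 points of HOXC8 lie between 10.5 and 13.5 CPM.

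With all 6 libraries, the comparison of KO with control called no HOX gene. Of the 17 tested, 0 passed edgeR's quasi-likelihood test at a Benjamini-Hochberg adjusted p under 0.05, against 0% of the 14613 genes tested, and 0 had an unadjusted p under 0.05, against 7.66% of all genes. With limma-voom 0 HOX genes were called as well. DESeq2 called 0 too, but of the genes named here it gave an adjusted p only for HOXA10, HOXC4, HOXC6, HOXC8, HOXC10 and HOXC13. It could therefore not have called HOXA4, HOXB7, HOXD8 or HOXA11. Fitted log2 fold changes (KO over control) were below 0 for 11 genes and above 0 for 6, with a median of −0.18 beside −0.0003 over all genes tested. The smallest p was that of HOXA4, which averaged 2.02 ± 0.629 CPM over the control libraries and 1.09 ± 0.608 over the KO libraries (SD, n = 3 each) and stood at −0.89 (SE 0.48, edgeR adjusted p = 0.69). HOXB7 stood at −1.33 (SE 1.36), HOXA11 at 0.97 (SE 0.70), HOXD8 at −0.67 (SE 0.71) and HOXC13 at −0.35 (SE 0.38). The standard errors of HOXB7 and HOXB9, which stood at 0.46 (SE 1.15), were the widest of the 17.

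Without both R2 libraries, HOXA11 was higher and HOXA4, HOXB7, HOXC6, HOXC13 and HOXD8 were lower in the 2 remaining KO libraries than in the 2 remaining control libraries. That is 6 of 17 tested HOX genes called by edgeR, beside 27.3% of the 14846 genes tested, with 1 higher beside 12.2% of all genes and 5 lower beside 15.2%. At an unadjusted p under 0.05 there were 8, beside 40% of all genes. HOXB7 and HOXA11 passed the filter with 6 libraries only through libraries in which they were high, so these counts are a description. The libraries left out were chosen from their DAPK3 level, so these p-values are no independent evidence for the labels. HOXB7 had 49 counts in the 2 control libraries and 2 in the 2 KO libraries, a ratio of 25.4 with a 95% counting interval from 6.67 to 216, and it fell by 4.52 on the log2 scale (SE 0.71, edgeR adjusted p = 0.005). HOXA4 fell by 1.69 on the log2 scale (SE 0.37, edgeR adjusted p = 0.015) and HOXD8 by 1.87 (SE 0.48, edgeR adjusted p = 0.027). HOXC13 fell by 0.98 (SE 0.22, edgeR adjusted p = 0.018) and HOXC6 by 0.90 (SE 0.23, edgeR adjusted p = 0.028). HOXA11 rose by 2.12 on that scale (SE 0.55, edgeR adjusted p = 0.028), on 7 counts in the control and 33 in the KO libraries. With DESeq2 the calls of HOXD8 (DESeq2 adjusted p = 0.075) and HOXA11 (0.18) were lost.

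The other 11 tested genes did not pass. HOXB9 stood at −1.70 (SE 0.56, edgeR adjusted p = 0.062), HOXC11 at −0.80 (SE 0.31, edgeR adjusted p = 0.095), HOXC4 at −0.48 (SE 0.22) and HOXC10 at −0.38 (SE 0.17). HOXC8 at −0.10 (SE 0.19), HOXC9 at −0.21 (SE 0.28), HOXA10 at 0.22 (SE 0.20), HOXA9 at 0.12 (SE 0.33), HOXA2 at 0.38 (SE 0.49) and HOXA3 at −0.28 (SE 0.34) were within about 1 SE of 0. Each of the 7 HOXC genes had a value below 0, and the median over the 17 genes was −0.38 beside −0.02 over all genes tested. Leaving out 1 more library kept the call of HOXB7 in each of the 4 fits, in which the lone library of a label is assumed to vary like the others. The call of HOXC13 was lost without control R1 (edgeR adjusted p = 0.073), that of HOXA4 without control R1 or control R3 (edgeR adjusted p = 0.074 and 0.059), that of HOXC6 without control R1 or KO R3 (0.095 and 0.11), that of HOXD8 without control R1, control R3 or KO R3 (0.086, 0.11 and 0.13) and that of HOXA11 without any one of the 4 (0.070 to 0.20).

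**Figure D3:**
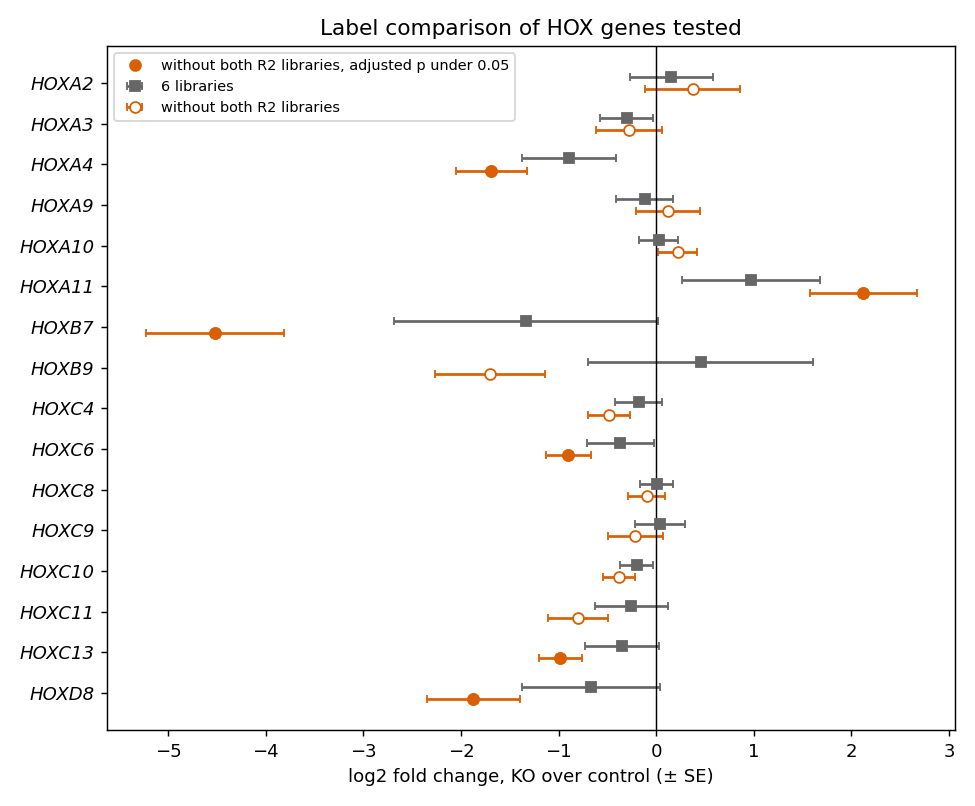
Log2 fold change of KO over control (points, with bars of 1 SE) for tested HOX genes, from all 6 libraries (grey squares) and without both R2 libraries (orange circles, filled where the edgeR adjusted p was under 0.05). Filled circles are HOXA11 on the right and HOXA4, HOXB7, HOXC6, HOXC13 and HOXD8 on the left, and no gene was called with 6 libraries.

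Beside DAPK3 RNA, 10 of the 17 tested HOX genes divided the libraries completely. Control R1, control R3 and KO R2, with more DAPK3 RNA, all stood above the other 3 libraries for 9 genes, beside 22.2% of all genes tested: HOXA4, HOXB7, HOXB9, HOXC4, HOXC6, HOXC9, HOXC11, HOXC13 and HOXD8. They all stood below for 1 gene, HOXA11, beside 21.3% of all genes tested. The other 7 overlapped, among them HOXA2, HOXA3, HOXA9, HOXA10, HOXC8 and HOXC10. By label, in contrast, 0 of the 17 genes separated KO from control without overlap, beside 13.8% of all genes. The division of HOXC9 rests on 3.98 CPM in control R3 against 3.93 in KO R1, from 79 and 74 counts. HOXB7, HOXB9 and HOXA11 passed the filter only through libraries in which they were high, so the counts by DAPK3 RNA are a description. No test or correlation is given, because the libraries fall into separate clusters of DAPK3 level.

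**Figure D4:**
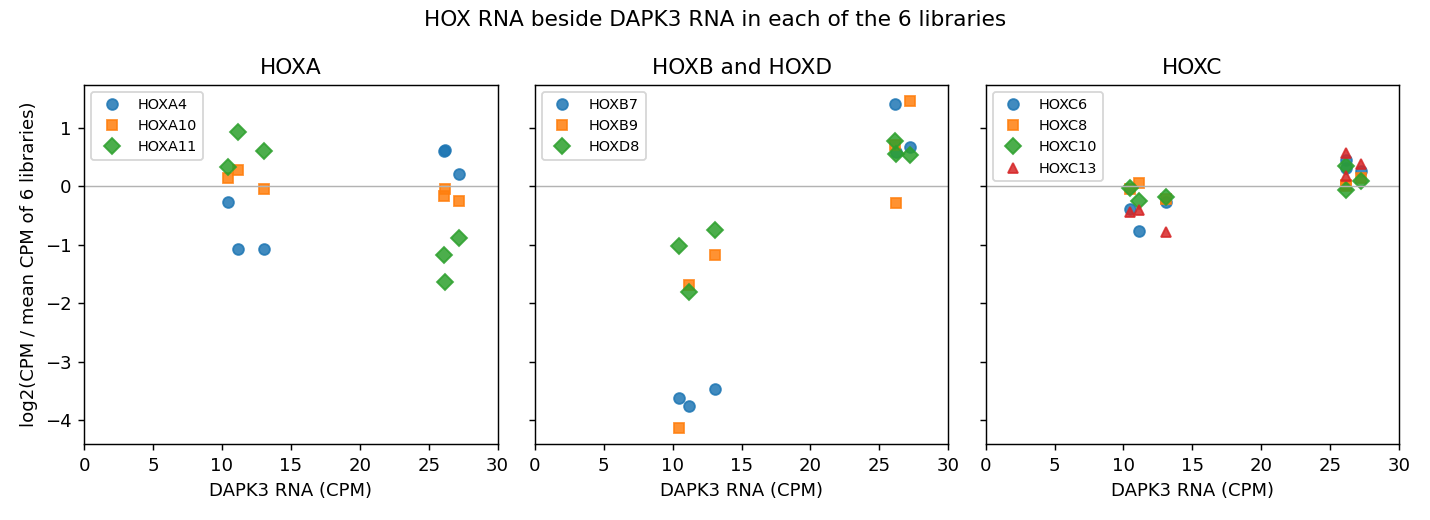
CPM of HOX genes relative to each gene's mean over the 6 libraries (log2 scale) against DAPK3 CPM, 1 point per gene and library, for 3 HOXA genes, for HOXB7, HOXB9 and HOXD8, and for 4 HOXC genes. DAPK3 lies between 10.5 and 13.1 CPM in 3 libraries and between 26.1 and 27.2 in the others, where HOXB7, HOXD8 and HOXA4 are high and HOXA11 is low.

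The stretch upstream of the start site is shown for 4 members whose promoter the RefSeq table for GRCh38.p14 holds: HOXA4, HOXD8 and HOXA11, called without both R2 libraries, and HOXC4, whose window the table also gives for HOXC5. The first 3 were chosen after their values were seen. Each is the 250 bases before the start on the gene's strand, and capitals mark CCAAT on either strand (ATTGG where it lies on the opposite strand).
HOXA4, chr7:27130758-27131007, minus strand: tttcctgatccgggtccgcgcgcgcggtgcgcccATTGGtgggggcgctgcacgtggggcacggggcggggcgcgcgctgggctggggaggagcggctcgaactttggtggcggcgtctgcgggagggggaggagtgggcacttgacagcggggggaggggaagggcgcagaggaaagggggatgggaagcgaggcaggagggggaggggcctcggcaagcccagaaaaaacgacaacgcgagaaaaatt
HOXA11, chr7:27185233-27185482, minus strand: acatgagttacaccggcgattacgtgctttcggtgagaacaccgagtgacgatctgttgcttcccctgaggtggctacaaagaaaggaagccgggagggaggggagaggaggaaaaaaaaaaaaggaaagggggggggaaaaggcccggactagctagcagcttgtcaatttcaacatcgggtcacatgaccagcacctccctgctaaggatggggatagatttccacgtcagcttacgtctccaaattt
HOXD8, chr2:176129455-176129704, plus strand: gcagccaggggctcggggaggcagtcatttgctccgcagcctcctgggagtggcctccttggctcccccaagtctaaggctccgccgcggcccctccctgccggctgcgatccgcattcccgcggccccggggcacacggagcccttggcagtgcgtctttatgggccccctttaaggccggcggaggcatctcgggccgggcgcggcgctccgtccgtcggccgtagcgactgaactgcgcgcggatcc
HOXC4, chr12:54016638-54016887, plus strand: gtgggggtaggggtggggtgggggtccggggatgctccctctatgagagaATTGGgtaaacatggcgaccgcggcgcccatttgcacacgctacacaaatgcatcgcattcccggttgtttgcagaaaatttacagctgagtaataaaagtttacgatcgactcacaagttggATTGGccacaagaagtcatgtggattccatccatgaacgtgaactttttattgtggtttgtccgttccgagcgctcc
The HOXA4 window, 70.0% G and C, held CCAAT at 216 bases before the start, and the HOXC4 window, at 50.8%, held it at 200 and 77 bases. The HOXD8 window (72.4% G and C) and the HOXA11 window (51.6%) held none of the 4 motifs searched.

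The table held 27 such windows for 20 of the 39 genes, 8 of them among the 17 tested, and HOXA3 alone had 7 of the windows. CCAAT, searched on both strands, was in 18 of the 27 windows (66.7%), beside 32.0% of all 35116 windows of that length. The window shared by HOXC4 and HOXC5 is the same sequence and is counted for each of them, in the 18 and in the 27. The site TGATNNAT, bound by PBX and HOX proteins together, was in 3 of 27 (11.1% beside 6.47%), upstream of HOXA2, HOXB1 and HOXD11. TATAAA was in 5 of 27 (18.5% beside 10.7%), and the exact direct repeat bound by retinoic acid receptors was in 0 of 27 and in 1 of all windows. Of the genes called, HOXA4, HOXA11 and HOXD8 had a window, and TGATNNAT and TATAAA were in none of these.

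Of 23 noncoding RNAs of the clusters, 6 were tested with 6 libraries and 7 without both R2 libraries. With 6 libraries 0 were called, beside 0% of all genes, and 0 had an unadjusted edgeR p under 0.05, beside 7.66%. Without both R2 libraries 0 were called, beside 27.3% of all genes. With so few tested, these counts are a description. HOTAIRM1, in the HOXA cluster, and HOXC13-AS were the most abundant. HOTAIRM1 had 5.91, 9.80 and 8.05 CPM in the control libraries and 11.6, 6.18 and 9.99 in the KO libraries, and without both R2 libraries it stood at 0.61 on the log2 scale (SE 0.24, edgeR adjusted p = 0.10). HOXC13-AS had 5.38, 4.64 and 3.42 CPM in the control libraries and 2.55, 4.08 and 2.87 in the KO libraries. Chosen after their values were seen, HOTAIR, which lies beside HOXC11, had 2.30, 1.67 and 2.72 CPM in the control libraries and 1.44, 1.79 and 1.30 in the KO libraries, and HAGLR, antisense to HOXD1, had 12, 0 and 9 counts in the control libraries and 0, 11 and 0 in the KO libraries. HAGLR was thus found only where DAPK3 RNA was higher. HOXD8, in the same cluster, was higher in those libraries but had counts in each library. The microRNA genes MIR10A, MIR10B, MIR196A1, MIR196A2 and MIR196B had 0 counts, in polyA-selected libraries that are not made for short RNAs.

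Beside the clusters, 9 of 15 neighbours were tested. With 6 libraries 0 were called and 1 had an unadjusted edgeR p under 0.05, beside 7.66% of all genes. Without both R2 libraries 2 were called lower and 0 higher, beside 15.2% and 12.2% of all genes. SKAP2, an adaptor protein gene beside the HOXA cluster, had 46.3, 22.0 and 43.7 CPM in the control libraries and 23.9, 45.0 and 20.1 in the KO libraries, and fell by 1.05 on the log2 scale without both R2 libraries (SE 0.15, edgeR adjusted p = 0.0031). LNPK, listed under its older symbol KIAA1715 and lying beyond HOXD13, had 28.4, 13.7 and 27.8 CPM in the control libraries and 12.4, 19.9 and 12.98 in the KO libraries, and fell by 1.16 (SE 0.15, edgeR adjusted p = 0.0025). EVX1 and EVX2, homeobox genes at the ends of HOXA and HOXD, and PRAC1 and PRAC2, beside HOXB13, had 0 counts in each library.

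Of 11 TALE cofactors tested, 3 were called higher and 3 lower without both R2 libraries, beside 12.2% and 15.2% of all genes, the median being −0.44 on the log2 scale, and 0 were called in 6 libraries (2 at an unadjusted p under 0.05, beside 7.66% of all genes). PKNOX2 fell by 9.14 on the log2 scale (SE 0.21, edgeR adjusted p = 1.1e-05) and PKNOX1, its closest relative, by 0.89 (SE 0.16, edgeR adjusted p = 0.0077). TGIF1, a TALE repressor, rose by 1.00 (SE 0.15, edgeR adjusted p = 0.0037) and PBX2, a HOX partner, by 0.53 (SE 0.12, edgeR adjusted p = 0.019). PKNOX2 had 248, 0.143 and 214 CPM in the control libraries and 0.478, 283 and 0.347 in the KO libraries. PKNOX2 therefore divided the libraries as HOXB7 did, over a far wider range.

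The counts for regulators of HOX loci stand beside the same 12.2% of all genes called higher and 15.2% called lower without both R2 libraries, and 7.66% at an unadjusted p under 0.05 with 6 libraries. Of 30 Polycomb genes, 4 were called higher and 1 lower without both R2 libraries, with a median of −0.05, and 0 were called in 6 libraries (6 at an unadjusted p under 0.05). RING1 (0.68, SE 0.12), PHC2 (0.63, SE 0.12) and PHF1 (0.61, SE 0.13) were among the higher and CBX2, a chromatin reader of the repressive mark, was the 1 lower (−0.96, SE 0.20), with edgeR adjusted p from 0.0085 to 0.014. EZH2, the main methyltransferase of that mark, named after its values were seen, had 81.0, 81.7 and 69.2 CPM in the control libraries and 54.4, 82.3 and 80.2 in the KO libraries, and was not called. Of 20 trithorax and activator genes 19 were tested, 5 called higher and 1 lower without both R2 libraries (median 0.14) and 0 in 6 libraries (3 at an unadjusted p under 0.05). KDM6B, a demethylase that removes the Polycomb mark, was the most significant of these (1.61, SE 0.15, edgeR adjusted p = 7e-04), followed by AFF1 (1.00, SE 0.14), PSIP1 (0.78, SE 0.16) and AFF4 (0.47, SE 0.12). Of 18 retinoic acid genes 10 were tested, 3 called higher and 1 lower without both R2 libraries (median 0.06) and 0 in 6 libraries (1 at an unadjusted p under 0.05). RXRA, a receptor partner, stood at 1.10 (SE 0.13), DHRS3, which lowers retinoic acid, at 1.13 (SE 0.18), CYP26B1, which degrades it, at 1.54 (SE 0.31) and the receptor RARG at −0.98 (SE 0.21). Of those named, RING1, PHC2, CBX2, AFF4 and RARG separated KO from control without overlap in all 6 libraries, as did 13.8% of all genes. CBX2 had 29.5, 26.7 and 42.1 CPM in the control libraries and 18.4, 14.8 and 18.8 in the KO libraries. PHF1, KDM6B, AFF1, PSIP1, RXRA, DHRS3 and CYP26B1 instead stood lower in control R1, control R3 and KO R2, as did 21.3% of all genes.

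Summed markers of blood, basal and mesenchymal cells divided the libraries as many HOX genes did. Of 3 blood markers PTPRC was detected above 1 CPM, with 2.98, 0.0478 and 2.92 CPM in the control libraries and 0.106, 3.28 and 0 in the KO libraries, the division seen for HOXB7, HOXB9 and HOXD8. CD3E, another of them, had at most 1 count in a library. The summed blood markers ran from 0.0478 to 3.03 CPM in control and from 0 to 3.28 in KO. Their part in the HOX values was not tested. The liver marker ALB and the neuron marker RBFOX3 were below 1 CPM in each library, and of the endothelial markers CDH5 had 0 counts and PECAM1 ran from 0.434 to 1.81 CPM. The summed fibroblast markers ran from 43.4 to 48.1 CPM in control and from 24.5 to 49.4 in KO. For the labelled line, PGR had 0 counts and ESR1 at most 0.478 CPM. ERBB2 had 95.3, 67.9 and 97.7 CPM in the control libraries and 52.2, 59.4 and 55.1 in the KO libraries. It thus separated the labels without overlap, as did 13.8% of all genes, and fell by 0.86 on the log2 scale without both R2 libraries (SE 0.12, edgeR adjusted p = 0.0029). Of the 4 breast epithelium markers, KRT8 ran from 89.5 to 237.7 CPM and KRT18 from 276.3 to 449.4, while CDH1 and EPCAM had at most 1 count, and the list summed to 466 to 564 CPM. That sum hides opposite divisions: without overlap, KRT8 was higher and KRT18 lower in control R1, control R3 and KO R2. The summed mesenchymal markers, all 3 above 1 CPM, ran from 2489 to 4558 CPM in control and from 1851 to 3623 in KO. The sum was higher in control R1, control R3 and KO R2, as HOXC6 and HOXC13 were. VIM and AXL each divided the libraries in that way. CD44 overlapped, with 526, 433 and 444 CPM in the control libraries and 304, 421 and 407 in the KO libraries. The summed basal markers KRT5, KRT14 and TP63 ran from 38.5 to 241 CPM in control and from 57.5 to 343 in KO, and were higher in control R2, KO R1 and KO R3, the libraries in which HOXA11 was higher. The part of these lists was not tested either.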

How the data were processed

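Polyadenylated RNA of 3 control and 3 DAPK3 KO libraries was sequenced, and the authors deposited a table of expected counts from RSEM, which are estimated reads for each gene and not normalized, per the file headers. RSEM, Bowtie2, edgeR and GRCh38 are named in the submitters' processing notes; their versions, the annotation and the strand setting were not given in the sources used here. Between 9.42% and 10.6% of the values of a library were not whole, and counts were rounded.

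All genes were fitted with edgeR 4.0.16 (R 4.3.3), using TMM factors, filterByExpr, the quasi-likelihood test of KO against control and Benjamini-Hochberg adjustment over all genes tested, and HOX rows were read from that fit. CPM is the count over the library total times its TMM factor. The SE is the fold change over the root of F. Alternatives were other scalings, filters and rounding, leaving out each library, a replicate block, limma-voom (limma 3.58.1) and DESeq2 1.42.0. The fit was tested on simulated data. Coordinates and merged exon lengths are from GENCODE release 29 (GRCh38), matched by identifier for all 39 genes, and promoters from RefSeq. The ratio of counts has an exact conditional interval, which, like the limit for 0 counts, covers counting error only.

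The members, lists and the comparison without both R2 libraries were chosen with earlier results of these data known. Each HOX gene that passed the filter was named (some items are not reported here), up to 4 called members of each other list (or the 2 most expressed), and sequences were to be those of up to 4 HOX genes with the largest change and a mean log2 CPM of at least 1. Of those, HOXC4 had a promoter in the table.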

Additional observations from a re-analysis of the deposited data

How the results depend on the processing

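With 6 libraries no alternative except leaving out both R2 libraries called a HOX gene. That alternative, added after seeing the data, gave 1 HOX gene higher and 5 lower, 1805 and 2250 genes in all, and a HOX median of −0.38. DESeq2 called 52 genes higher and 72 lower over all genes. Of the named HOX genes it gave an adjusted p only for HOXA10, HOXC4, HOXC6, HOXC8, HOXC10 and HOXC13. The filter of 1 CPM in all libraries of a group tested 12 HOX genes instead of 17. Neither could call the genes it left out. Leaving out each library in turn moved the HOX median from −0.36, without KO R2, to −0.089. Small values changed sign: HOXC8 to −0.033 with upper-quartile scaling, −0.013 with the filter of 1 CPM in all libraries of a group, −0.0015 with limma-voom and −0.10 without both R2 libraries. HOXC9 went to −0.0011 and HOXA10 to −0.0093 with upper-quartile scaling. Without both R2 libraries HOXC9 went to −0.21, HOXB9 to −1.70 and HOXA9 to 0.12. With single libraries left out, the range was −0.081 to 0.092 for HOXC8, −0.32 to 0.054 for HOXA9, −0.29 to 0.35 for HOXA2, −1.15 to 1.36 for HOXB9, −0.10 to 0.14 for HOXC9 and −0.15 to 0.13 for HOXA10.

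Without both R2 libraries, HOX genes called higher numbered 0 with DESeq2 and 4 were called lower, as it lost HOXA11 (DESeq2 adjusted p = 0.18) and HOXD8 (0.075). With the filter of 1 CPM, 0 were called higher as well. HOXA11, with at most 0.868 CPM in a library, could not pass that filter and was not tested there. The number called lower ran from 1 to 5 with single libraries left out, where it was 1 without control R1 and 3 without control R3 or KO R3. Over all genes those fits called 1107 to 1723 higher and 1436 to 2193 lower, and 2543 in all without control R1 beside 4055. Those fits also had fewer libraries, and the cause was not tested. Ranges that crossed 0 were −0.13 to 0.44 for HOXA9, −0.24 to 0.042 for HOXC8 and −0.16 to 0.75 for HOXA2. Of the named gene results, 184 alternatives kept direction and side of the threshold, 17 lost the call and 3 changed sign. Only results of called genes could lose a call, while uncalled genes that stayed uncalled are among the 184. The other scalings and unrounded counts kept 1 higher and 5 lower.

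Deviations from the label means correlated at −0.655, −0.853 and −0.70 between libraries of the same number. In each label the R2 library lay apart from R1 and R3 in the division by DAPK3 RNA, seen in 43.5% of genes. These correlations therefore could not show whether libraries of the same number were paired. The replicate block called 0 HOX genes with 6 libraries. Without both R2 libraries it called 0 HOX genes higher and 3 lower and 1088 genes higher in all, without the calls of HOXC6 (edgeR adjusted p = 0.057), HOXD8 (0.059) and HOXA11 (0.072). Depth limits the HOXB, HOXD and HOXA11 values, where 3 counts equal 0.130 to 0.186 CPM.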

Other observations

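Along the HOXC cluster, the log2 fold changes without both R2 libraries ran in order of position number from HOXC13 (−0.98, SE 0.22) through HOXC11 (−0.80, SE 0.31), HOXC10 (−0.38, SE 0.17) and HOXC9 (−0.21, SE 0.28) to HOXC8 (−0.10, SE 0.19), after which HOXC6 stood at −0.90 (SE 0.23) and HOXC4 at −0.48 (SE 0.22). Each step from HOXC13 to HOXC8 was smaller than the sum of both SEs, and no test of the order was made. With 6 libraries the same 5 genes stood at −0.35, −0.26, −0.20, 0.04 and 0.01, so the order did not hold between HOXC9 and HOXC8.

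HOXB8 (48611377 to 48614939 on chromosome 17) had 0 counts in each library although it lies inside the annotated span of HOXB7 (48607227 to 48633572), which also holds HOXB9. HOXB7 had 67 and HOXB9 had 92 counts over the 6 libraries. HOXA10-AS, antisense to HOXA10 over 608 exonic bases, had 1.76, 2.82 and 1.26 CPM in the control libraries and 2.87, 1.05 and 3.26 in the KO libraries, so that control R1, control R3 and KO R2 all stood below the other libraries.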
